A study of Mus musculus with 2 samples.

Results

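Terminal erythroid remodelling and clearance were represented by 9 genes, which were followed through 2 single-cell libraries of mouse spleen. They were Xpo7, Tmcc2, Trim10, Bcl2l1, Bnip3l, Ube2o, Ube2l6, Tent5c and Bpgm, which make up 9 of the 26124 genes in the matrices. Each was found by its symbol in the list of genes that comes with each matrix. The set had been chosen by levels measured in these same libraries, as genes high in late erythroid cells, so the contrast of late with cycling cells is a description of the set and not evidence for it.

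Each library came from 1 spleen of 1 untreated mouse aged 12 to 16 weeks. The cells were freed of red cells with a lysis buffer and then enriched on magnetic beads carrying anti-F4/80 antibody, F4/80 being a macrophage surface protein. The mouse called wild-type in the labels was homozygous for Hbatm1Paz, heterozygous for Hbbtm1Tow and hemizygous for Tg(HBA-HBBs)41Paz, and did not sickle. The SCD mouse was homozygous for all 3 and sickled. Both mice therefore lacked the mouse α-globin genes by label and carried the human transgene, and neither was free of the sickle construct. With 1 mouse per condition there is no replicate, and the 95% intervals below cover counting error only.

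Late erythroblasts leave the cell cycle, condense and expel the nucleus, and become reticulocytes, which go on to clear mitochondria, ribosomes and the endoplasmic reticulum. In the mouse spleen this takes place in the red pulp, on erythroblastic islands, where erythroblasts sit around a central macrophage (EBI, erythroblastic island; RPM, red pulp macrophage). Clearance runs through mitophagy receptors and autophagosomes and through ubiquitin enzymes, while a survival factor of the BCL-2 family keeps the cell alive as other proteins are lost.

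Depth was 145953464 UMIs over 24144 barcodes for the library labelled wild-type and 73986356 over 15442 for that labelled SCD, and 19418 and 12279 barcodes were kept as cells. A total of 107 barcodes occurred in both libraries, 65 of them among kept cells. The globin genes went against the labels. Hbb-bs, a mouse adult β-globin gene that Hbbtm1Tow deletes, stood at 42504 CPM (counts per 1000000 UMIs) in cycling erythroblast-like cells of the library labelled SCD and at 124 CPM in those labelled wild-type. Hbb-bt stood at 14010 and 226 CPM. Hba-a1, a mouse α-globin gene, was found in both, at 26138 CPM in the library labelled SCD and 22026 CPM in that labelled wild-type. Libraries are therefore named only as labelled, and no direction between them is tied to a genotype.

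Cells were grouped without the 9 genes. Of 29 clusters, 3 were called cycling erythroblast-like, 2 late erythroid-like, 3 EBI-like and 3 RPM-like, from their erythroid, cell cycle and macrophage markers. The limits on marker levels were chosen with the clusters in view. Cycling erythroblast-like cells numbered 2920 under the label wild-type and 239 under SCD. Late erythroid-like cells numbered 2237 and 186, EBI-like cells 2406 and 637, and RPM-like cells 4739 and 1631. Another 2532 cells (13% of those kept) and 927 cells (7.55%) lay in clusters near these limits and stayed out of the classes. Among them was a cluster of 710 cells labelled wild-type and 184 labelled SCD with Tmcc2, Bpgm and Xpo7 among its leading genes.

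Marker levels describe the classes and do not check their names, since the names were given by those markers. In the library labelled wild-type, all 13 erythroid and 16 cell cycle markers were found in cycling and late cells. They were all found in its EBI and RPM classes too, so being found does not set the classes apart. The summed cell cycle level was 10314 CPM in cycling and 911 CPM in late cells of that library, and 13479 and 714 CPM in the library labelled SCD. Macrophage markers were present in late cells as well. Their sum was 24879 CPM in late cells labelled wild-type, against 42322 CPM in RPM-like and 4330 CPM in the main B lymphocyte-like cluster, and 13131 CPM in late cells labelled SCD, against 36776 and 3184 CPM. The part that macrophage RNA, doublets or cells still attached to macrophages play in the values below was not tested. Interferon-response genes (Rsad2, Isg15) were among the leading genes of the larger late cluster, and Oas1e among those of the other.

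The 9 genes lie on 7 chromosomes of GRCm38 by the GENCODE M21 annotation, all of them protein coding. Xpo7 (ENSMUSG00000022100, chr14:70654246-70766628, minus strand) and Bnip3l (ENSMUSG00000022051, chr14:66985239-67008877, minus strand) are 3645 kb apart. Bcl2l1 (chr2:152780668-152831728, minus strand) and Ube2l6 (chr2:84798828-84810335, plus strand) share a chromosome at 67970 kb. The others stand alone, with Tmcc2 at chr1:132356315-132391281 and Tent5c at chr3:100451628-100489324 on the minus strand, Bpgm at chr6:34476207-34505613 on the plus strand, Ube2o at chr11:116537740-116581447 on the minus strand and Trim10 at chr17:36869574-36877833 on the plus strand.

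RefSeq promoter windows on GRCm38.p6, from 250 bases before a start to 50 after it, were at hand for 6 of the 9 genes, 10 windows in all. They were searched on both strands for AGATAA and TGATAA, forms of the site read by GATA1, for CCNCNCCC, the CACCC type of box read by KLF1, and for TGAGTCA, a site of the NF-E2 and AP-1 type. AGATAA or TGATAA lay in 3 of the 10 windows and in 18.6% of all 32851 windows. CCNCNCCC lay in 6 of 10 and in 49.5% of all, and TGAGTCA in 1 of 10 and in 5.2% of all. Tmcc2 and Bcl2l1 have 3 windows each. With only the window nearest the annotated start of each gene, AGATAA or TGATAA lay in 1 of 6 genes. CCNCNCCC then lay in 4 and TGAGTCA in 1. The 3 windows with AGATAA are shown, since GATA1 is the main erythroid activator, with the promoter of Tent5c as one that holds CCNCNCCC alone. All read 5′ to 3′ along the gene, and the capitals mark every match to a searched motif on either strand.
Trim10, chr17:36869324-36869623, plus strand: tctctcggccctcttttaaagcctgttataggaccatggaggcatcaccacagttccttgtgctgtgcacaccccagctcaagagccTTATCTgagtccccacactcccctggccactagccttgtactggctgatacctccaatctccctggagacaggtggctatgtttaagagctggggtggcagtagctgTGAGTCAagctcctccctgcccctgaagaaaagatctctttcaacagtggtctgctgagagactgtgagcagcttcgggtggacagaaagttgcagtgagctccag
Tmcc2, an internal start, chr1:132367899-132368198, minus strand: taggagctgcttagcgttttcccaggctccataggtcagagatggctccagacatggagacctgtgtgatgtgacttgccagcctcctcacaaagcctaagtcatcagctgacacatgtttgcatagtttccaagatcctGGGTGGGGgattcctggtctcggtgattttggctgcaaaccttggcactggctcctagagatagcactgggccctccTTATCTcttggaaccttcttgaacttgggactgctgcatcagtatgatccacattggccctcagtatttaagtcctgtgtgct
Bcl2l1, an internal start, chr2:152828440-152828739, minus strand: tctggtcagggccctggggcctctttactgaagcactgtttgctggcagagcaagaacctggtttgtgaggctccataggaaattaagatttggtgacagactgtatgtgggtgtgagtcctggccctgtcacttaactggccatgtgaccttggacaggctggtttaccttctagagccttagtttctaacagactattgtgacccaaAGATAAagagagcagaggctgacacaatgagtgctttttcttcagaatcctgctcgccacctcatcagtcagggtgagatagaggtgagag
Tent5c, chr3:100489143-100489442, minus strand: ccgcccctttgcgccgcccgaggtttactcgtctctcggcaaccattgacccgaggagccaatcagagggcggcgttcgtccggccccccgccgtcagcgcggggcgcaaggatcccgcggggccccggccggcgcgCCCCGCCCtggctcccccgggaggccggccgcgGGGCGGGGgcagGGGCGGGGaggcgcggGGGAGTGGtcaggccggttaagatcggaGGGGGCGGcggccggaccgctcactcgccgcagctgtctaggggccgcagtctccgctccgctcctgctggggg
In Trim10 the AGATAA match lies on the opposite strand 163 bases before the start, and TGAGTCA 56 bases before it. In the internal windows AGATAA lies 33 bases before the start of Tmcc2, on the opposite strand, and 41 bases before that of Bcl2l1, on the gene's strand. Tent5c holds 5 matches to CCNCNCCC between 113 and 24 bases before its start. A match is a description of the letters in the window.

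All 9 genes were higher in late than in cycling cells, in both libraries, by more than 2-fold. Over all genes with at least 100 UMIs, 3.96% of 10234 were at least 2-fold higher in late cells labelled wild-type and 8.8% of 3976 in those labelled SCD. This is the contrast on which the genes were chosen, and nothing is read from the count. The median log2 ratio over the 9 was 2.47 under the label wild-type and 2.93 under SCD, and over all genes -0.27 and -0.69. Within the set the ratios spread widely, from 1.07 to 3.62 and from 1.46 to 5.30.

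**Figure D1:**
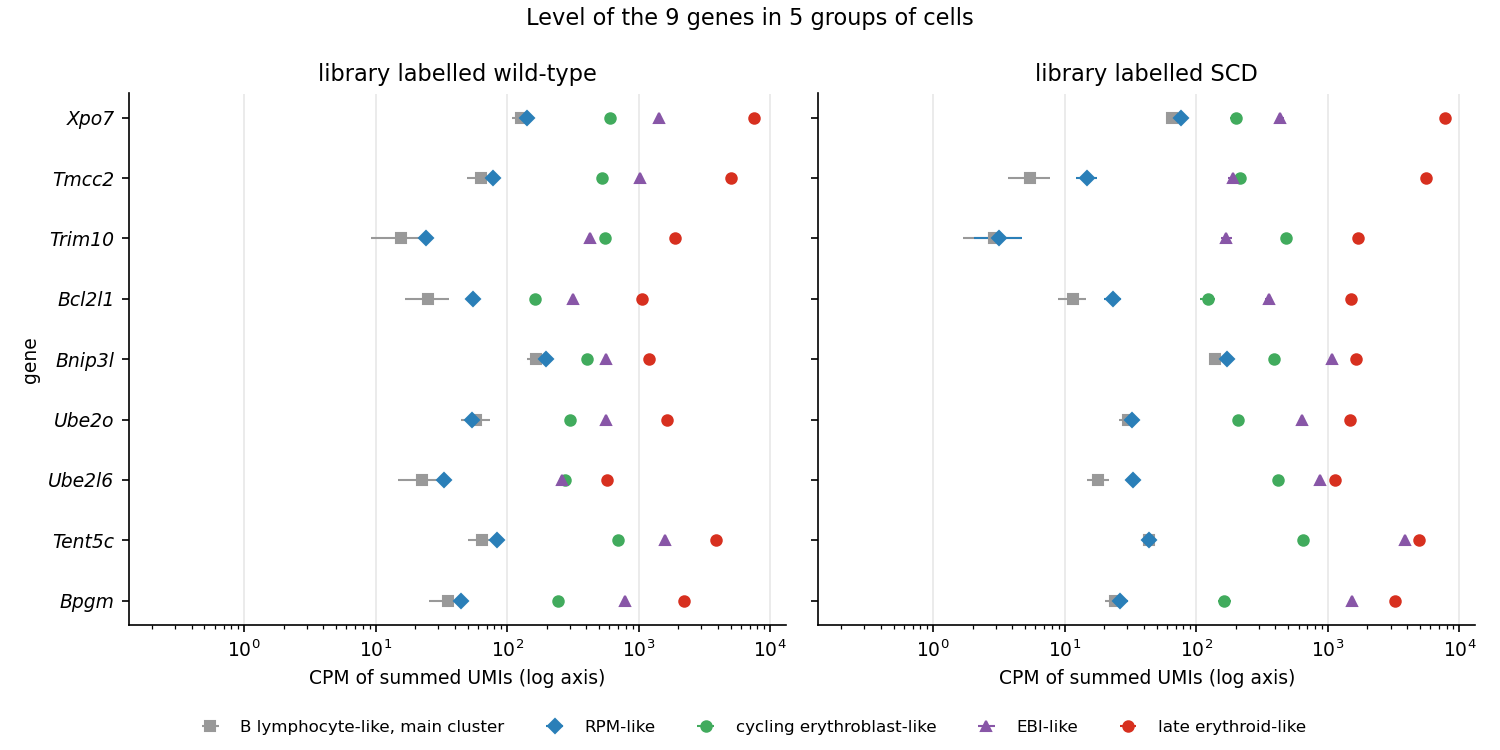
Level of each of the 9 genes (rows) as CPM of summed UMIs on a log axis, in 5 groups of cells of the library labelled wild-type (left) and labelled SCD (right); points are sums over all cells of a group and bars 95% exact Poisson intervals. Late erythroid-like cells have the highest level of each gene in both libraries, and RPM-like cells lie nearest to the main B lymphocyte-like cluster.

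Xpo7, a nuclear export receptor needed for the nucleus of the erythroblast to condense, had the largest ratio. Its level was 608 CPM (598 to 618) in cycling cells and 7460 CPM (7399 to 7521) in late cells labelled wild-type, a 12.3-fold difference (12.0 to 12.5). With the label SCD it was 199 CPM (179 to 220) and 7834 CPM (7620 to 8051), a 39.4-fold difference (35.5 to 43.8). The late levels of the libraries were close and the cycling levels were not. Cells with at least 1000 UMIs were thinned to 1000. Of these, 98.6% of late cells (98 to 99) and 29.5% of cycling cells (27.9 to 31.3) labelled wild-type held an Xpo7 UMI. In the main B lymphocyte-like cluster of that library, 13.1% of cells did.

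Tmcc2, a membrane protein of the endoplasmic reticulum, followed Xpo7 closely. It stood at 526 CPM (517 to 535) in cycling and 5019 CPM (4969 to 5069) in late cells labelled wild-type, and at 216 CPM (196 to 238) and 5602 CPM (5422 to 5786) in those labelled SCD. The difference was 9.54-fold (9.35 to 9.73) and 26-fold (23.5 to 28.8). As for Xpo7, the libraries differed in the cycling cells and hardly in the late ones. After thinning, a Tmcc2 UMI was found in 96.8% of late cells labelled wild-type and in 6.42% of cells of the main B lymphocyte-like cluster.

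Trim10, a RING-type ubiquitin ligase required for terminal erythroid differentiation, was high in cycling cells, behind Tent5c in both libraries and Xpo7 labelled wild-type. Its level was 558 CPM (549 to 567) there and 1891 CPM (1861 to 1922) in late cells labelled wild-type, and 482 CPM (452 to 514) and 1711 CPM (1612 to 1814) in those labelled SCD. The ratios, 3.39-fold (3.31 to 3.47) and 3.55-fold (3.25 to 3.87), were alike in the 2 libraries, with overlapping intervals.

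Bcl2l1 encodes BCL-XL, which keeps late erythroblasts alive. It stood at 164 CPM (159 to 169) in cycling and 1059 CPM (1036 to 1082) in late cells labelled wild-type, and at 122 CPM (107 to 139) and 1504 CPM (1412 to 1601) in those labelled SCD. The difference was 6.45-fold (6.21 to 6.70) and 12.3-fold (10.7 to 14.2).

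Bnip3l, the mitophagy receptor NIX that clears mitochondria from reticulocytes, was present in every class and had one of the smaller ratios. It measured 408 CPM (400 to 416) in cycling and 1208 CPM (1184 to 1233) in late cells labelled wild-type, and 388 CPM (361 to 417) and 1642 CPM (1545 to 1743) in those labelled SCD. That is a 2.96-fold (2.88 to 3.05) and a 4.23-fold difference (3.85 to 4.65). In the main B lymphocyte-like cluster it was 164 CPM and 140 CPM.

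The 2 ubiquitin-conjugating enzymes differed from each other. Ube2o, which tags ribosomal and other surplus proteins for the proteasome in reticulocytes, stood at 303 CPM (296 to 310) in cycling and 1640 CPM (1612 to 1669) in late cells labelled wild-type. Under the label SCD it was 209 CPM (189 to 231) and 1483 CPM (1391 to 1579). Ube2l6, the conjugating enzyme for the ubiquitin-like protein ISG15, had the smallest ratio of the 9. Its level was 276 CPM (270 to 283) and 579 CPM (562 to 596) labelled wild-type, a 2.10-fold difference (2.02 to 2.18), and 415 CPM (387 to 444) and 1141 CPM (1061 to 1226) labelled SCD, a 2.75-fold difference (2.49 to 3.04).

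Tent5c, a non-canonical poly(A) polymerase, was at 697 CPM (687 to 708) in cycling and 3853 CPM (3809 to 3897) in late cells labelled wild-type, and at 646 CPM (611 to 683) and 4916 CPM (4747 to 5089) in those labelled SCD. Bpgm makes 2,3-bisphosphoglycerate, which lowers the oxygen affinity of hemoglobin. It stood at 244 CPM (238 to 251) in cycling and 2224 CPM (2191 to 2257) in late cells labelled wild-type, and at 164 CPM (146 to 183) and 3258 CPM (3121 to 3399.6) in those labelled SCD. The difference was 9.10-fold (8.84 to 9.37) and 19.9-fold (17.7 to 22.5).

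**Figure D2:**
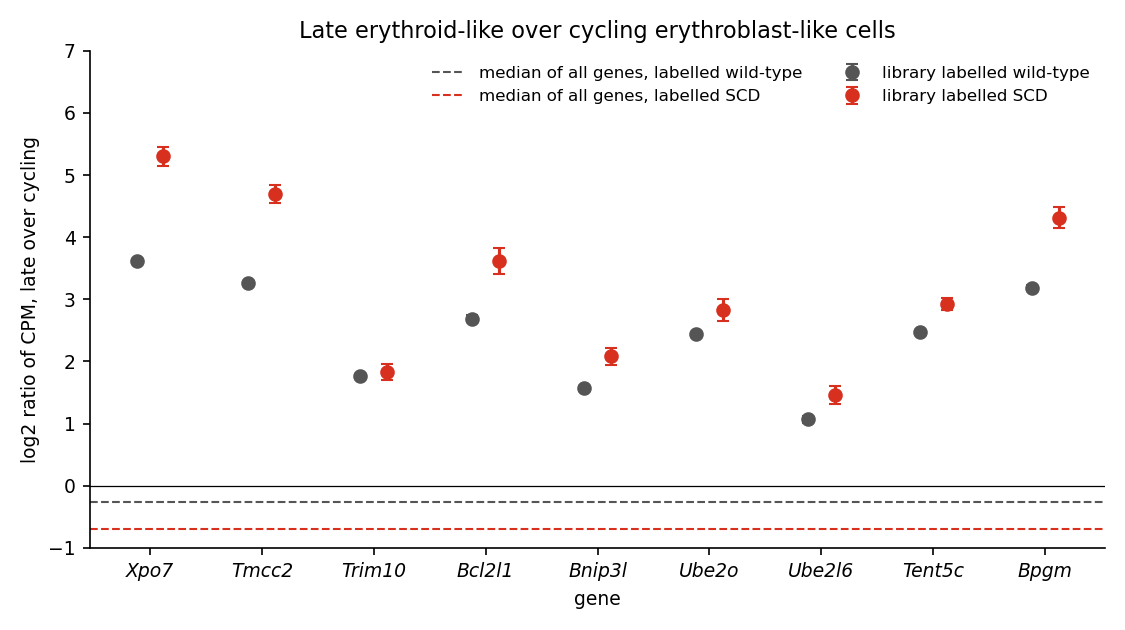
The log2 ratio of CPM, late erythroid-like over cycling erythroblast-like cells, for each gene in the library labelled wild-type (grey) and labelled SCD (red), with 95% counting intervals as bars and the median of all genes tested as dashed lines. Xpo7 has the largest ratio in both libraries, Ube2l6 the smallest, and the value of Trim10 is nearly the same in both.

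Late cells held fewer UMIs in all, with a median of 2439 against 7586.5 in cycling cells labelled wild-type and of 2722.5 against 6830 in those labelled SCD, so a share of the total can differ where the number of molecules does not. Counted per cell, Xpo7 went from 5.19 UMIs in cycling to 25.9 in late cells labelled wild-type and from 1.61 to 27.5 in those labelled SCD. Tmcc2 went from 4.49 to 17.4 and from 1.75 to 19.7, and Bpgm from 2.09 to 7.72 and from 1.33 to 11.4. Bnip3l was at 3.48 and 4.19 UMIs per cell labelled wild-type. Ube2l6 alone of the 9 had fewer UMIs per late cell there, 2.01 against 2.36, and in the library labelled SCD it had 4.01 against 3.36.

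The median of the 9 ratios stayed above 0 in both libraries under each of 15 other settings, between 1.71 and 2.71 labelled wild-type and between 1.30 and 3.48 labelled SCD. Of single ratios, all 135 kept their sign under the label wild-type and 131 of 135 under SCD. These numbers include a setting that left out members with low counts, which dropped none and so repeated the reported ratios. The genes had been chosen on this contrast, so a kept sign describes the set and is no evidence for it. When the 9 genes, the gene lists and the globin genes were allowed into the clustering, Xpo7, Tmcc2 and Trim10 came out lower in late than in cycling cells labelled SCD, at log2 ratios of -1.69, -2.74 and -1.02. With library-size factors Trim10 came out at -0.04. In these settings, in that order, late cells labelled SCD numbered 359 and 825 and EBI-like cells labelled SCD 0 and 9. In the main grouping they numbered 186 and 637.

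The late class is made of 2 clusters that hold the libraries unequally. The larger, led by Xpo7, Tmcc2 and Sowaha, has 1138 cells labelled wild-type and 161 labelled SCD. The other, led by Slfn14, Dyrk3 and Oas1e, has 1099 and 25. Globin genes took 4.75% of UMIs in the first and 0.731% in the second in the library labelled wild-type. Xpo7 was nearly level across them there, at 7517 and 7360 CPM, and Tmcc2 stood at 4817 and 5372 CPM. Ube2l6 was not, with 790 CPM in the first and 211 CPM in the Slfn14-led cluster, and Bnip3l stood at 1430 and 820 CPM and Tent5c at 4497 and 2725 CPM. In the 25 cells labelled SCD of the Slfn14-led cluster Ube2l6 also was low, at 303 CPM against 1190 CPM in the 161 cells of the larger one. The Slfn14-led cluster lay near the limits used for naming, at 3.78 for erythroid and 2.77 for macrophage markers. Globin took 1.31% of UMIs in EBI-like cells labelled wild-type, more than in that cluster. At Leiden resolution 0.5 late cells labelled wild-type numbered 3549 and EBI-like cells 1137, against 2237 and 2406 here. The line between late and EBI-like cells thus depended on the setting.

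The EBI-like clusters, in which macrophage and erythroid markers occur together, divided the set. In the library labelled wild-type the cluster led by Hba-x and Tent5c (1123 cells) held Xpo7 at 569 CPM, 7.63% of its level in late cells, and Tmcc2 at 372 CPM, 7.41%. Trim10 kept 22.8% and Bcl2l1 36.5% of the late level. Ube2l6 kept 94.5%, Tent5c 78.7%, Bnip3l 77.3%, Bpgm 55.4% and Ube2o 48.6%. For scale, Alas2, the first enzyme of heme synthesis in erythroid cells, kept 89.5%, and the membrane gene Slc4a1 31.3%.

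The same order of groups was seen in the library labelled SCD, in another cluster. There the EBI-like cells were mostly those led by Hbb-bs, Hbb-bt and Tent5c (609 cells), and kept 4.34% of the late level of Xpo7, 2.40% of Tmcc2 and 8.84% of Trim10. Tent5c kept 77.7%, Ube2l6 74.4%, Bnip3l 65.1%, Bpgm 46.0%, Ube2o 41.9% and Bcl2l1 22.4%. The third EBI-like cluster, led by the heat-shock gene Hspa1b and Slfn14 (1267 cells labelled wild-type), did not divide the set: its 9 shares lay between 18.7% for Ube2l6 and 30.5% for Bnip3l. Tent5c, Ube2l6 and Bpgm are among the 10 leading genes of the first 2 clusters, so the division describes those clusters, and it carries no test.

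**Figure D3:**
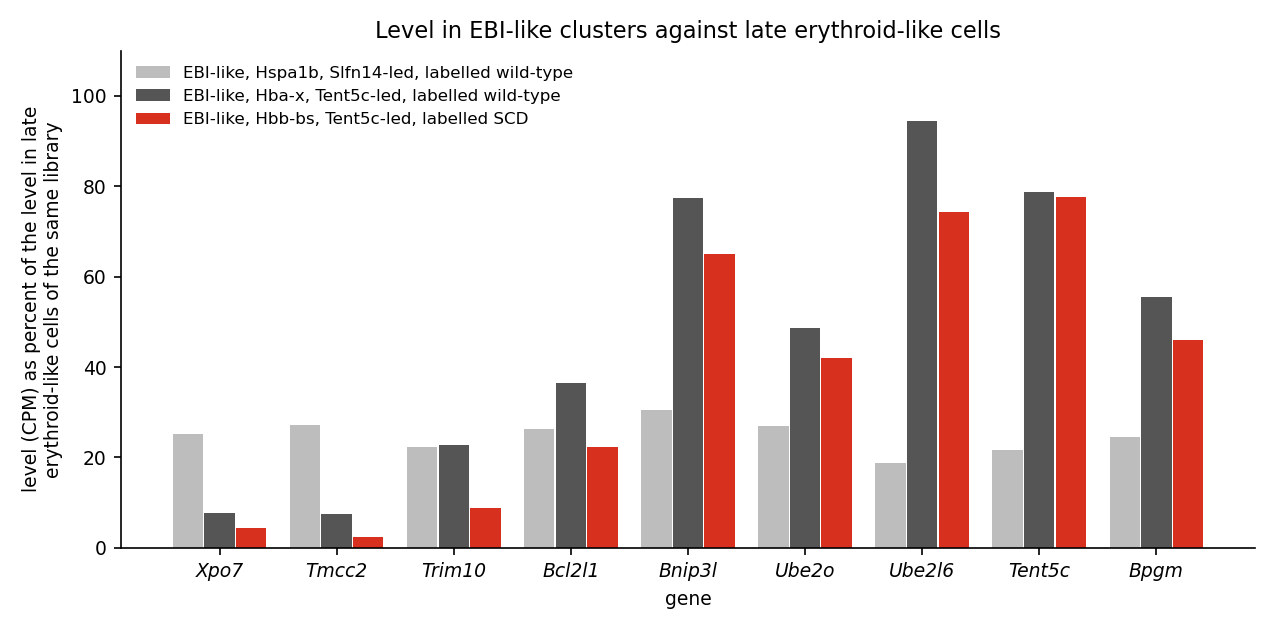
Level (CPM) of each gene in 3 EBI-like clusters as percent of its level in late erythroid-like cells of the same library; bars start at 0 and have no error bar. In the Hba-x, Tent5c-led and the Hbb-bs, Tent5c-led clusters Xpo7 and Tmcc2 are under 8% while Ube2l6, Tent5c and Bnip3l are over 65%, and in the Hspa1b, Slfn14-led cluster the 9 genes are at similar shares.

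Small barcodes labelled SCD fell in with the EBI-like cells. With the limit lowered from 500 to 200 genes, 990 barcodes labelled SCD and 410 labelled wild-type with at least 200 but under 500 genes fell into late erythroid-like clusters. Of the 990, 966 lay in a cluster led by Hbb-bs, Hbb-bt, Ube2l6 and Tent5c, with Bpgm also among its leading genes, which took up 575 of the 637 cells called EBI-like above and 4 of the 186 called late. Of the 410, 364 lay in an Xpo7, Tmcc2-led cluster. The levels below therefore describe those clusters. In the 990 labelled SCD, 47.0% of UMIs were globin, and Xpo7 stood at 1631 CPM (1554 to 1710) and Tmcc2 at 676 CPM (627 to 728), against 7834 and 5602 CPM in late cells with at least 500 genes. Tent5c stood at 14365 CPM (14135 to 14598), Ube2l6 at 3431 CPM (3319 to 3546) and Bnip3l at 3468 CPM (3355 to 3583). In the 410 labelled wild-type, where globin took 5.52%, Xpo7 was at 16414 CPM and Tmcc2 at 11625 CPM, more than 2-fold above late cells, and Ube2l6 at 892 CPM. Of all genes tested in the small barcodes against late cells, 1.42% of 1479 labelled SCD and 4.75% of 6627 labelled wild-type were at least 2-fold higher. Among the 9, Tent5c, Ube2l6 and Bnip3l passed that in the library labelled SCD, and Xpo7, Tmcc2, Bcl2l1, Ube2o, Tent5c and Bpgm in that labelled wild-type.

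RPM-like cells held little of these transcripts. In the library labelled wild-type the levels ran from 24.3 CPM for Trim10 to 198 CPM for Bnip3l, and in that labelled SCD from 3.19 to 170 CPM. The main B lymphocyte-like cluster, of 471 and 1723 cells, gave 15.6 to 164 CPM and 2.89 to 140 CPM for the same genes. Against it, Bcl2l1 in both libraries (55.4 against 25.1 CPM labelled wild-type and 23.1 against 11.5 CPM labelled SCD) and Tmcc2 in that labelled SCD (14.7 against 5.43 CPM) were at least 2-fold higher in RPM-like cells, beside 21% of 9453 and 18.9% of 9469 of all genes. The rest lay within 2-fold. Bnip3l was 1.21-fold (1.04 to 1.40) and 1.22-fold higher (1.12 to 1.33), and Ube2l6 labelled SCD 1.84-fold (1.46 to 2.33). The part of free RNA in these levels was not tested, nor whether B lymphocytes make some of these transcripts themselves. Thinning to 1000 UMIs left out cells with fewer. After it, an Xpo7 UMI was found in 14.5% of RPM-like and 13.1% of main-cluster B lymphocyte-like cells labelled wild-type. The shares were 6.99% and 5.69% in those labelled SCD. Median depths of the cells used were 2548 and 2055 UMIs labelled wild-type and 4417.5 and 2903 UMIs labelled SCD. In EBI-like over RPM-like cells all 9 genes were at least 2-fold higher in both libraries, beside 3.21% and 1.59% of all genes. EBI-like clusters had been named by their erythroid markers, and nothing is read from that count.

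Between the libraries no direction could be given for the late cells. The ratio of labelled SCD over labelled wild-type had a median of 0.35 (log2) over the 9, from -0.15 for Ube2o to 0.98 for Ube2l6, with none at least 2-fold apart, beside 2.64% of 6768 genes higher and 17.8% lower. The median of all genes was -0.38. The class is mostly the Xpo7-led cluster in the library labelled SCD and both clusters in the other. Other choices of cells and clusters moved the median of the 9 from -0.93 to 1.12. Without the Slfn14-led cluster, a setting added after the data had been seen, the median was 0.14. Ube2l6 then stood at 1190 CPM labelled SCD against 790 CPM labelled wild-type.

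In cycling cells the median was -0.42, and Xpo7 at -1.61 (-1.76 to -1.47) and Tmcc2 at -1.29 (-1.43 to -1.14) were at least 2-fold lower in the library labelled SCD, beside 7.32% of 9978 genes. Xpo7 was lower labelled SCD in each of the 3 cycling clusters. In the cluster led by Car1, Cdc6 and Stard10, Xpo7 stood at 97.5 CPM labelled wild-type and 22.5 CPM labelled SCD. In the Ube2c-led cluster it stood at 1161 and 407 CPM, and in the Hemgn-led cluster, the largest, at 768 and 307 CPM. Macrophage markers summed to 14426 CPM in cycling cells labelled wild-type and 6353 CPM in those labelled SCD. With the 9 genes, the gene lists and the globin genes all allowed into the clustering, the cycling class labelled SCD grew from 239 to 417 cells and both ratios turned, to 1.83 for Xpo7 and 1.55 for Tmcc2.

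In RPM-like cells the median was -0.91, and Trim10 (-2.93), Tmcc2 (-2.41) and Bcl2l1 (-1.26) were at least 2-fold lower in the library labelled SCD, beside 4.22% of 9977 genes. The fall was not particular to the set: 11 of 12 erythroid markers tested were at least 2-fold lower there, with a median of -2.73. In the main B lymphocyte-like cluster 7 of the 9 had enough UMIs, and Tmcc2 alone of them was at least 2-fold lower (-3.54), beside 0.686% of 7722 genes. All 3 erythroid markers tested in that cluster were at least 2-fold lower, with a median of -2.20. Trim10 (17 and 18 UMIs) and Bcl2l1 (68 and 29 UMIs) were too few there, and their ratios were -2.43 and -1.12. RPM-like cells are mostly a Marco-led and a Dock3-led cluster under the label wild-type and a Rgs1, Adamdec1-led cluster in the other. Trim10 labelled SCD rests on 24 UMIs in RPM-like cells.

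**Figure D4:**
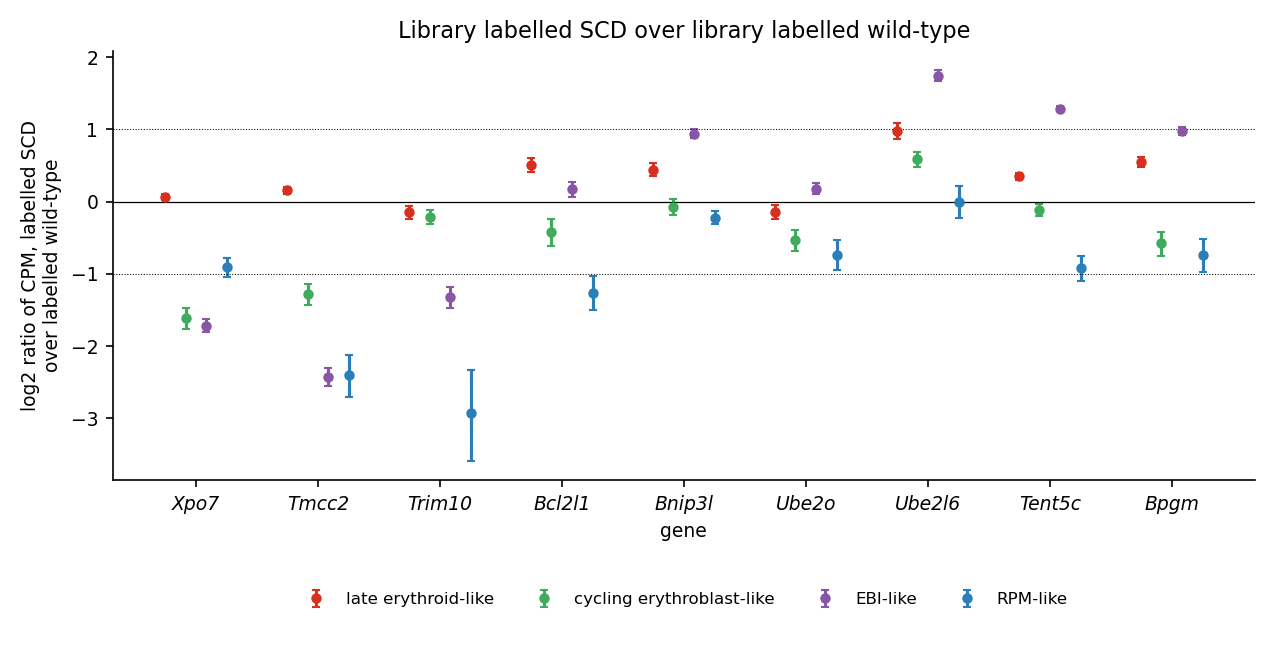
The log2 ratio of CPM, library labelled SCD over library labelled wild-type, for each gene in 4 classes, with 95% counting intervals as bars and dotted lines at a 2-fold difference. Late cells (red) lie between -0.15 and 0.98, Xpo7 and Tmcc2 in cycling cells (green) lie below -1, and EBI-like values (purple) set an Hbb-bs, Tent5c-led cluster against the Hba-x, Tent5c-led and Hspa1b, Slfn14-led clusters.

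Other genes of the same pathways were counted in the contrast of late with cycling cells. The lists were chosen with earlier results of these data known and the counts are of genes with at least 100 UMIs. Over all genes, 23.9% were at least 2-fold lower in late cells labelled wild-type and 40.3% in those labelled SCD. Of the mitophagy and autophagy genes, 10 of 29 were at least 2-fold higher and 3 lower in late than in cycling cells labelled wild-type, and 11 of 22 and 4 labelled SCD, with medians of 0.70 and 0.99. Ulk1, the kinase that starts autophagy, was at 57.8 and 349 CPM in cycling and late cells labelled wild-type, a log2 ratio of 2.60, and the receptor Calcoco1 at 20 and 103 CPM, a ratio of 2.36. The proteases Atg4b (-2.21) and Atg4d (-1.89) were lower. Their ratios labelled SCD were 3.02, 3.25, -2.88 and -2.66.

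Among the rest of the BCL-2 family, 1 of 14 genes labelled wild-type was at least 2-fold higher and 1 lower, with a median of -0.26. With the label SCD, 3 genes were tested, 1 of them lower, with a median of -0.44. Mcl1, another survival factor, was at 324 and 276 CPM in cycling and late cells labelled wild-type, against 376 and 277 CPM labelled SCD. The pro-apoptotic Bcl2l11 was at 63.3 and 39.4 CPM and at 62.5 and 30.6 CPM. Bcl2l13 was at 89.6 and 43.7 CPM and at 99.7 and 88.8 CPM.

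Among nuclear transport genes other than Xpo7, none of 30 was at least 2-fold higher in late cells labelled wild-type and 14 were lower, and in the library labelled SCD none of 21 was higher and 16 were lower, with medians of -0.94 and -1.64. Ran, the GTPase that drives transport, stood at 679 and 130 CPM in cycling and late cells labelled wild-type (-2.38) and Rangap1 at 213 and 39.5 CPM (-2.43). The import receptor Tnpo1 had the highest values of the list, 0.77 labelled wild-type and 0.57 labelled SCD, and the exportin Xpo4 stood at 0.16 and -0.60. Labelled SCD, Ran was at -3.16 and Rangap1 at -3.01.

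Of other ubiquitin enzymes, 9 of 37 were at least 2-fold higher and 6 lower labelled wild-type, and 8 of 31 and 8 labelled SCD, with medians of -0.05 and -0.16. Ube2h stood at 200 and 1590 CPM in cycling and late cells labelled wild-type (2.99) and Fbxo30, a ligase subunit, at 194 and 1424 CPM (2.87). Labelled SCD, they were at 4.08 and 3.1. Ube2c, which acts in mitosis, went from 1189 to 144 CPM (-3.05) and from 1722 to 132 CPM (-3.71), and Ube2t stood at -3.04 and -5.71. The last of these values rests on 1.53 CPM in late cells labelled SCD, a class of 652823 UMIs in all. Of the ISG15 pathway, 1 of 5 genes labelled wild-type and 1 of 4 labelled SCD was at least 2-fold higher and none lower, with medians of 0.24 and 0.29. That gene was Isg15, at 292 and 953 CPM labelled wild-type (1.71) and 227 and 623 CPM labelled SCD (1.46). The activating enzyme Uba7 was at 0.24 and 0.18, Herc6 at 0.01 and 0.41 and Trim25 at -0.53 and -0.58.

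Of the genes of glycolysis around Bpgm, none of 14 was at least 2-fold higher labelled wild-type and none of 8 labelled SCD, with 4 lower in each and medians of -0.04 and -0.67. Pgk1 was at 0.32 and 0.33, Aldoa at 0.47 and 0.03, Minpp1, a phosphatase that also acts on 2,3-bisphosphoglycerate, at -2.49 and -2.50, and Pfkm at -4.13 and -5.19. In late cells labelled SCD Pfkm stood at only 1.53 CPM, so its second ratio rests on very few UMIs. Of the relatives of Tmcc2 and Tent5c, none of 6 labelled wild-type and none of 5 labelled SCD was higher, with 1 lower in each and medians of -0.14 and -0.19. Tmcc3 stood at 0.37 and 0.93, Tent5a at 0.39 and 0.26, Tent2 at 0.03 and -0.78 and Tent4a at -3.06 and -2.56.

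Of genes of enucleation and terminal maturation, 5 of 20 were at least 2-fold higher and 6 lower in both libraries, with medians of 0.20 and 0.23. Epb41, which encodes protein 4.1 of the red cell skeleton, was at 804 and 2866 CPM in cycling and late cells labelled wild-type (1.83). Labelled SCD, it was at 2.22. The formin Diaph3 was at -1.83 and -2.45 and the histone methyltransferase Kmt5a at -1.81 and -2.68. Of 13 erythroid markers 1 was higher and 5 lower in both libraries, with medians of -0.44 and -0.20.

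Across 46 groups of at least 50 cells, each a cluster in 1 library, the log2 levels of the 9 genes correlated with each other at Pearson's r of 0.66 (Xpo7 and Ube2l6) to 0.98 (Tent5c and Bpgm). These values are descriptions, since groups share their library and free RNA. Among 9931 genes the nearest to each were mostly erythroid genes or other members. Tbcel (0.98) and Tmcc2 (0.95) came closest to Xpo7, Slfn14 (0.98) and Gadd45a (0.96) to Tmcc2, and Tspo2 (0.99) and Slc4a1 (0.98) to Trim10. Ube2o (0.97) and Rsad2 (0.97) came closest to Bcl2l1, Dcaf12 (0.95) and Ccndbp1 (0.93) to Bnip3l, and Epb41 (0.98) and Rsad2 (0.98) to Ube2o. Hba-a2 (0.96) came closest to Ube2l6, Bpgm (0.98) and Ube2o (0.96) to Tent5c, and Tent5c (0.98) and Ube2o (0.97) to Bpgm. Within the larger late cluster, over cells thinned to 1000 UMIs, Xpo7 and Tmcc2 had the highest Spearman's rho of the 36 pairs, 0.58 over 1129 cells labelled wild-type and 0.58 over 161 labelled SCD, and Tent5c and Bpgm followed with 0.47 and 0.50. In the Slfn14-led late cluster Xpo7 and Tmcc2 also had the highest rho, 0.56 over 996 cells labelled wild-type. Tent5c and Bpgm stood at 0.30 there, behind several other pairs such as Tmcc2 and Ube2o at 0.33.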

How the data were processed

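The authors aligned reads of 10x Genomics 3′ v3.1 libraries, counted UMIs per gene and barcode and deposited raw counts with empty droplets removed. The submitters' processing notes name Cell Ranger 4.0.0, R 4.4, Seurat 3.2.3, Scanpy 1.6.0 and GRCm38.p6, and the matrix headers software version 3.1.0. From the deposited counts, a barcode was kept with 500 to 5000 genes and with mitochondrial genes below 15% and genes of ribosomal proteins below 30% of its UMIs. Size factors from scran 1.30.0 (R 4.3.3), 2000 variable genes without the 9 genes, the gene lists, globin and sex-linked genes, 30 principal components, 15 neighbours and Leiden clustering at resolution 1 (scanpy 1.11.5, igraph 0.11.9) gave the clusters.

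A cluster was named by the median log2 level of its markers over the main B lymphocyte-like cluster. Erythroid classes needed 3.5 and more than the macrophage value, and were called cycling where the cell cycle markers reached 3. Macrophage classes needed 3 and were called EBI-like where erythroid markers reached 2. These limits were set after the clustering had been seen. One erythroid marker, Ahsp, was not analysed here. Doublets were left in. Scrublet's own threshold marked 0 cells labelled wild-type, so the highest-scoring 10% (1942 cells) were taken there, and 1723 cells labelled SCD, in the alternative without doublets.

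Levels are CPM of summed UMIs with exact Poisson intervals, shares of cells have exact binomial intervals after thinning to 1000 UMIs, and ratios carry intervals conditional on their UMIs, all at 95%. Cells with fewer than 1000 UMIs were left out of the thinned shares and of the correlations between cells. No test was run, as each condition has 1 mouse. The calculation of ratios was also run on simulated Poisson counts with known answers. The intervals assume that model, so the run checked the calculation and not the model. The members and lists were chosen with earlier results of these data known. Named were the 9 members, up to 4 genes of each list (the 2 highest and 2 lowest mean ratios of late over cycling cells with at least 100 UMIs in each library), the 2 genes most like each member over groups of at least 50 cells among genes with at least 1000 UMIs, class markers and globin genes. Genes of this rule that are withheld from the text are not reported here. The leading genes of clusters are named outside that rule, with their values known. Alternatives changed cell filters, doublets, size factors, resolution, genes and libraries clustered, the total, the weight of cells, free RNA, the choice of cells and low counts.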

Additional observations from a re-analysis of the deposited data

Results flagged for a closer look

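The ratio of labelled SCD over labelled wild-type lay above 0 in late cells and below 0 in cycling cells for some members. These were Xpo7, Tmcc2, Bcl2l1, Tent5c and Bpgm, with counting intervals that leave out 0 on both sides. The share of all genes that meet this rule was not counted, so nothing is read from the number of members. With 1 mouse per condition the difference between the classes was not tested. For Xpo7 the ratio was 0.071 (0.029 to 0.11, log2) in late and -1.61 in cycling cells. Tmcc2 was at 0.16 (0.11 to 0.21) and -1.29, and Bcl2l1 at 0.51 (0.41 to 0.60) and -0.42 (-0.62 to -0.24). Tent5c was at 0.35 (0.30 to 0.40) and -0.11 (-0.19 to -0.03), and Bpgm at 0.55 (0.48 to 0.62) and -0.58 (-0.75 to -0.41). The late values changed with the choice of cells, as given under the processing.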

How the results depend on the processing

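The report gives medians of 2.47 and 2.93 (log2, late over cycling cells labelled wild-type and labelled SCD) and of 0.35, -0.42 and -0.91 (labelled SCD over labelled wild-type in late, cycling and RPM-like cells). The first 2 kept their direction under all 15 other settings, with 6 to 9 and 7 to 9 of the 9 genes at least 2-fold apart. The genes had been chosen on this contrast, so its direction is no evidence for the set. Among the 15, the setting that left out members with low counts dropped none and repeated the reported values. The median in late cells and that in cycling cells changed sign under some. Values outside the counting interval of the reported one follow in the same order, each named. The share of all genes at least 2-fold apart was not counted under the other settings, so nothing is read from the numbers of members.

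With at least 200 genes per cell, where 1564 of 1753 late cells labelled SCD lay in a cluster that took up most cells otherwise called EBI-like, late over cycling was 2.60 and 2.14, late cells -0.76 and RPM-like cells -1.88, with 3, 1 and 7 genes at least 2-fold apart between libraries in late, cycling and RPM-like cells. With at least 1000 genes, late over cycling labelled SCD was 2.72, late cells -0.16 and cycling cells -0.66. Without doublets the values were 2.24, 3.22, 0.80, -0.22 and -0.76, with 2 genes 2-fold apart in late and 1 in cycling cells. With library-size factors they were 2.41, 1.60, -0.93 in late and -0.042 in cycling cells, with 4 and 0 genes, and Trim10, late over cycling labelled SCD, reversed to -0.044. At Leiden resolution 0.5 late over cycling labelled wild-type was 1.71 and late cells 1.12, with 5 genes. At resolution 2 the values were 2.40, 3.05 and 0.44 in late cells, with 1 gene.

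With all genes in the clustering, late over cycling labelled SCD was 1.30, late cells -0.19, cycling cells 1.32 and RPM-like cells -2.50, with 5, 6 and 7 genes. Xpo7 (-1.69), Tmcc2 (-2.74) and Trim10 (-1.02) reversed in late over cycling cells labelled SCD, as did Xpo7 (1.83) and Tmcc2 (1.55) between the cycling cells. With each library clustered on its own the values were 2.27, 2.36 and -0.25 in late cells, with 1 gene. A total without globin, mitochondrial and ribosomal-protein genes gave 2.43, 3.03 and 0.54, with 1 gene, and the mean of cells 2.60 and, in late cells, 0.27, with 1 gene. Subtracting the level of the main B cluster gave 2.69 and, in RPM-like cells, -0.64, with 1 gene in late and 5 in RPM-like cells. Cells picked without clusters gave 1.94, 2.30 and -0.035 in late cells, with 1 gene in late and 1 in cycling cells. Among settings added after the data had been seen, no upper limit on genes gave 2.71, 3.48 and 0.50, with 1 gene, and late cells without the Slfn14-led cluster 2.69 labelled wild-type and 0.14 between libraries. The number of late cells labelled SCD ran from 65 to 1753 over these settings. With library-size factors it was 825, and EBI-like cells labelled SCD fell from 637 to 9. With all genes in the clustering the numbers were 359 late and 0 EBI-like cells. What these shifts between classes contribute to the changed ratios was not tested.

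Each condition has 1 mouse, so no interval covers the spread between mice. Late and cycling cells labelled SCD are few (186 and 239), and levels near those of B lymphocyte-like cells cannot be told apart from free RNA. No paired analysis was possible because each condition has 1 library and no result comes from a test.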
